A study of Saccharomyces cerevisiae with 10 samples.

Results

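The 2 arrays of a budding yeast strain without SUB2 (sub2∆) were set against the 2 arrays of a strain without THO2 (tho2∆), 4 of the 10 arrays of the series. Arrays were chosen by their titles alone. Of 5716 probe sets, the 4498 with a value on both arrays of each strain were tested, standing for 4304 genes. The series holds 4 strains of the W303-1A background, grown in rich medium with adenine (YPAD) to mid-log phase. Affymetrix arrays of 1 colour were hybridised with labelled copies of total RNA. The sub2∆ strain, DLY23, has HIS3 inserted in place of SUB2, and the tho2∆ strain, RK2-6C, has KanMX4 in place of THO2. Strain SChY58a, with kanMX4 in place of HPR1 (hpr1∆, 3 arrays), and wild type W303-1A (WT, 3 arrays) are given only as context. They entered no test apart from alternative fits in which they helped to set the spread. All 4 strains are of mating type a and carry the marker alleles ura3-1, trp1-1, leu2-3,112, his3-11,15, can1-100 and ade2-1. Each deletion is represented by 1 strain, so the deletion and any other feature of that strain cannot be told apart. Replicates are described as biological in the labels, which give nothing further about the cultures. The p-values below therefore cover only the variation among these 4 arrays, which may be partly technical.

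THO is a nuclear complex of Hpr1, Tho2, Mft1, Thp2 and Tex1 that binds chromatin during transcription elongation. It recruits the RNA helicase Sub2 and the export adaptor Yra1, and together they form TREX, which packages nascent mRNA and hands it to the export receptor Mex67. Sub2 also acts in the spliceosome, and yeast cells that lack THO or Sub2 are known for poor transcription of long or GC-rich genes and for transcription-linked recombination.

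The difference between sub2∆ and tho2∆ was in the first place a difference of 2 whole chromosomes. Genes of chromosomes II and X had higher levels in sub2∆, with a median log2 difference (sub2∆ minus tho2∆) of 0.615 over 263 probe sets of chromosome II and of 0.649 over 197 of chromosome X. On the other 14 chromosomes the median lay between -0.201 and -0.122. Over both chromosomes, 449 of 460 probe sets (97.6%) had a positive difference, against 784 of 3874 (20.2%) on the other 14. Relative to the genes of those 14 chromosomes, the median of II and X was 0.788 on the log2 scale, a level 1.73 times as high. Probe sets were called where the adjusted p of limma's moderated test was under 0.05. On that rule 10.3% of all probe sets were called higher in sub2∆ and 18.7% lower. On chromosome II, 213 probe sets (81.0%) rose and 3 fell, and on chromosome X 170 (86.3%) rose and 1 fell. Together these were 83.3% higher and 0.87% lower. On each of the other 14 chromosomes, between 0.68% and 5.41% rose. Chromosomes II and X held 10.2% of the probe sets tested and 82.9% of those called higher (383 of 462).

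**Figure D1:**
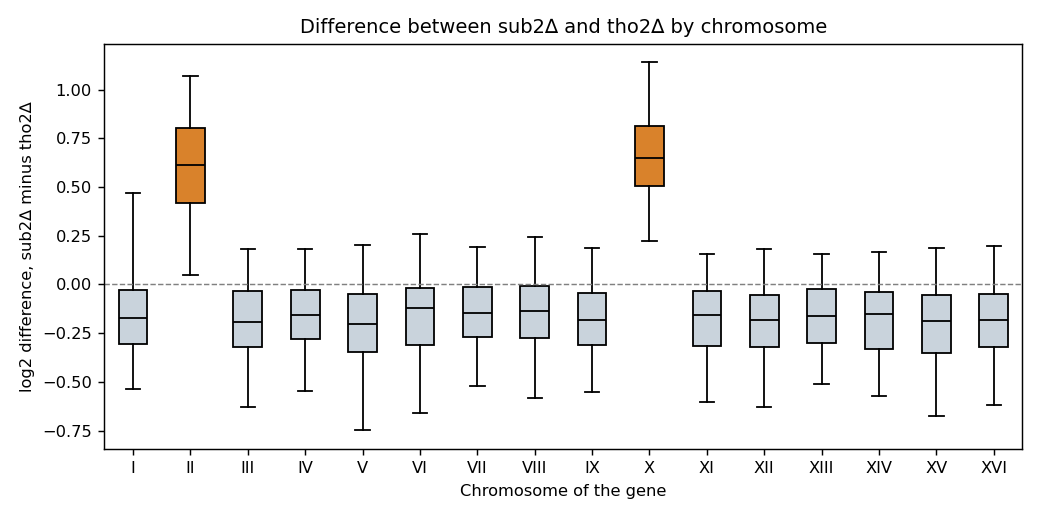
Log2 difference between sub2∆ and tho2∆ (vertical axis) for the genes of each of the 16 chromosomes (horizontal axis). Boxes run from the lower to the upper quartile with a line at the median, and whiskers reach the 5th and 95th percentiles. Chromosomes II and X, in orange, have medians of 0.615 and 0.649, and the other 14 boxes lie below 0.

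The shift was present in each of the 4 pairs of 1 sub2∆ and 1 tho2∆ array. The median of chromosome II lay between 0.581 and 0.626 in these pairs, and that of chromosome X between 0.637 and 0.702. The 6 arrays outside the comparison show which strain stands apart. Each array was set against the mean of the hpr1∆ arrays, after the median over the 14 other chromosomes had been subtracted. The sub2∆ arrays then had medians of 0.713 and 0.732 for chromosome II, and the tho2∆ arrays medians of 0.00348 and -0.00498. For chromosome X the sub2∆ arrays had 0.829 and 0.838, and the tho2∆ arrays -0.00704 and -0.00256. WT arrays had between 0.00424 and 0.055 for II and between -0.00797 and 0.0355 for X. Set against the WT mean, the sub2∆ arrays again had 0.657 and 0.663 for II and 0.779 and 0.811 for X, while the tho2∆ and hpr1∆ arrays lay between -0.0422 and -0.00229. Both sub2∆ arrays were thus high for both chromosomes, and the tho2∆ and hpr1∆ arrays were near each other and near WT. The arrays measured RNA, and the DNA content of the strains was not measured, so extra copies of II and X in the sub2∆ strain and more RNA from each copy cannot be told apart. This holds for each higher call on these chromosomes below.

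**Figure D2:**
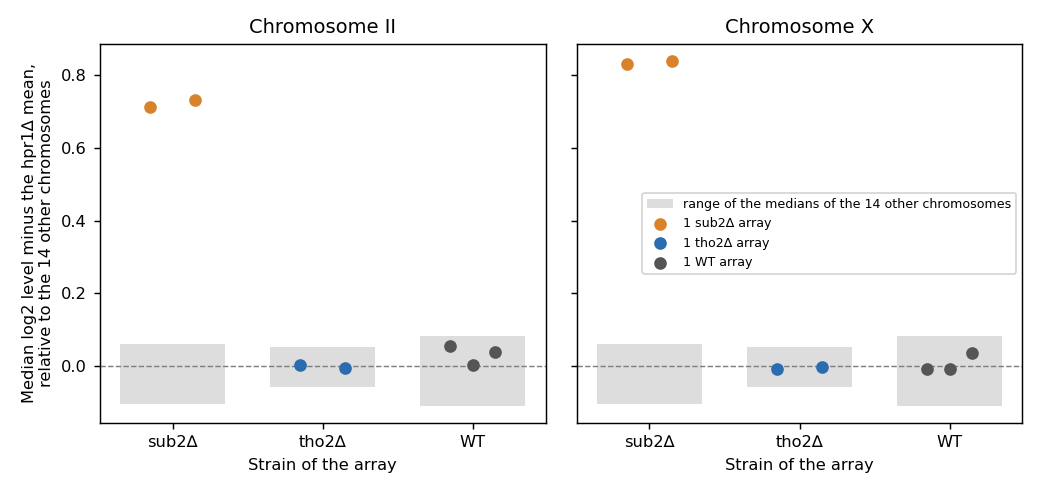
Median log2 level of chromosome II genes (left) and chromosome X genes (right) on each sub2∆, tho2∆ and WT array, minus the mean of the hpr1∆ arrays and relative to the 14 other chromosomes. Points are arrays and grey bars span the medians of the 14 other chromosomes in each strain. The 4 sub2∆ points lie between 0.713 and 0.838, and the tho2∆ and WT points lie inside or at the grey bars near 0.

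The shift ran from one end of each chromosome to the other. The median was 0.675 on the left arm and 0.588 on the right arm of chromosome II, and 0.648 and 0.658 on those of chromosome X. With probe sets ordered by gene position, the running median over 21 neighbours stayed between 0.416 and 0.759 along chromosome II and between 0.57 and 0.799 along chromosome X. Along chromosome IV it stayed between -0.307 and 0.0409, and along chromosome XV between -0.34 and -0.0784. No running median on II or X came down to those of IV and XV. The size of the difference was much the same for dim and middling genes and smaller for the brightest. Split by their tho2∆ level into 5 bins of 92 probe sets, from dim to bright, the genes of II and X had medians of 0.679, 0.722, 0.719, 0.648 and 0.417. The tho2∆ level is also a term of the difference, so the bins are not independent of it.

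**Figure D3:**
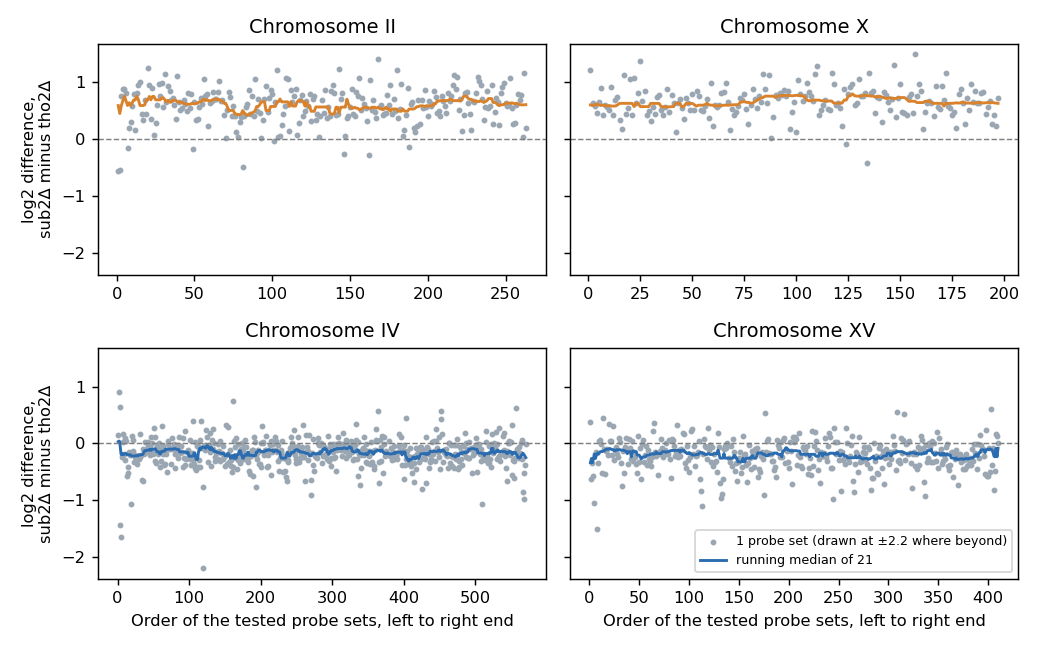
Log2 difference between sub2∆ and tho2∆ (vertical axes) along chromosomes II, X, IV and XV, with probe sets in the order of their genes (horizontal axes). Dots are probe sets, and lines are running medians over 21 neighbours, which stay above 0.416 on II and above 0.57 on X and at or below 0.0409 on IV and XV.

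Of the 15 largest higher calls with non-overlapping arrays and 1 gene, 12 lay on chromosome II or X. EMC2, a subunit of the endoplasmic reticulum membrane complex encoded on X, had intensities of 2017 and 1992 in sub2∆, against 763 and 646 in tho2∆. Its log2 difference was 1.49 ± 0.10 (SE, limma adjusted p = 0.00424), and hpr1∆ (1449 ± 27.7, SD, n = 3) lay between the strains. CPS1, a vacuolar carboxypeptidase on X, had 2967 and 2950 in sub2∆ and 1205 and 1056 in tho2∆, a 2.6-fold difference (limma adjusted p = 0.00424). HAM1, which removes non-canonical purine nucleotides, had 2444 and 2507 in sub2∆, against 1092 and 903 in tho2∆. COX16, an assembly factor of cytochrome c oxidase, had 1236 and 1094 in sub2∆ and 512 and 426 in tho2∆. In all 4 genes both sub2∆ arrays lay above both tho2∆ arrays. UMP1, a proteasome assembly chaperone on II, had 6167 and 5921 in sub2∆, against 2718 and 2488 in tho2∆, 2573 ± 45.8 in hpr1∆ and 1698 ± 166 in WT (SD, n = 3 each). SUS1 on II encodes a small protein shared by SAGA and by TREX-2, the complex that ties transcribed genes to the nuclear pore. Its intensities were 1178 and 1242 in sub2∆ and 474 and 538 in tho2∆, with a log2 difference of 1.23 ± 0.09 (SE, limma adjusted p = 0.00424). The others were ICS2 (1.41), PET112 (1.25), ZTA1 (1.22) and MAL33 (1.17) on II, and REE1 (1.22) and SPC1 (1.16) on X, all log2 differences with limma adjusted p of at most 0.00924. PET112 encodes a subunit of the mitochondrial enzyme that makes glutaminyl-tRNA, MAL33 an activator of maltose genes and SPC1 a signal peptidase subunit.

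Few genes of the 2 chromosomes went the other way. A difference below 0 was found for 11, of which YBL113C, YBL112C, YBR013C and ANB1, named here after their values were seen, passed the test. YBL113C and YBL112C lie in the repeated sequence next to a telomere, and their probe sets can bind copies on other chromosomes. ANB1, the hypoxic form of the translation factor eIF5A, had 3720 and 3769 in sub2∆, against 4915 and 5116 in tho2∆ (log2 difference -0.42, limma adjusted p = 0.0144). Among very bright genes TDH1, a glyceraldehyde-3-phosphate dehydrogenase, had 9966 and 9979 in sub2∆ and 9746 and 9959 in tho2∆, and RPL4A, a large-subunit ribosomal protein, had 22439 and 22501 in sub2∆ and 21866 and 22307 in tho2∆. Neither passed the test, at log2 differences of 0.02 each.

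Over all chromosomes 1302 probe sets (28.9%) were called, 462 higher and 840 lower in sub2∆. At an unadjusted p under 0.05 there were 2006. All 1302 had arrays that did not overlap between the strains, against 72.7% of all probe sets tested (18.3% with both sub2∆ arrays above and 54.3% with both below). The split of the calls rested on the scaling of the arrays. As deposited, 35.5% of the calls were higher and the median log2 difference of all probe sets was -0.14. After each array's median was subtracted, 64.8% were higher (540, against 293 lower, which were 6.51% of those tested), and after quantile normalization 69.3% (536, against 238 lower, 5.29% of those tested). Leaving out 1 array at a time left between 396 and 919 calls, the fewest without tho2∆ replicate 2, then 472 without tho2∆ replicate 1, 815 without sub2∆ replicate 2 and 919 without sub2∆ replicate 1. On II and X between 243 and 338 higher calls were left in these fits. The array medians were 1346 and 1374 in sub2∆, against 1485 and 1467 in tho2∆. Differences are therefore also given below relative to the 14 other chromosomes, after subtraction of each array's median over the genes of those chromosomes, a scale chosen after the data were seen. On that scale 13.7% of all probe sets were called higher and 5.94% lower. Among the 3874 probe sets of those chromosomes, 62 were called higher (1.6%) and 802 lower (20.7%) as deposited, and 187 (4.83%) and 250 (6.45%) on the relative scale. All 250 were among the 802. Fitted without II and X and with those medians subtracted, 58 (1.5%) rose and 108 (2.79%) fell. Of the 840 lower calls 34 were of at least 2-fold, and of the 462 higher calls 42 were.

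Each deleted gene was low in the strain labelled as lacking it. SUB2 had 104 and 54.6 in sub2∆, against 12443 and 13406 in tho2∆, 13080 ± 317 in hpr1∆ and 12371 ± 365 in WT (SD, n = 3 each). It was 141-fold lower in sub2∆ (log2 difference -7.14 ± 0.25, limma adjusted p = 0.00112). THO2 had 1257 and 1116 in sub2∆, against 322 and 183 in tho2∆ (2.21 ± 0.25, limma adjusted p = 0.00546), with 1382 ± 64.9 in hpr1∆ and 2467 ± 97.5 in WT. THO2 was thus below WT in sub2∆ and hpr1∆ too, by their values. The other THO genes did not pass the test as deposited. HPR1 had 575 and 541 in sub2∆ and 651 and 686 in tho2∆ (-0.25, limma adjusted p = 0.0636). MFT1 had 1469 and 1677 in sub2∆ and 1618 and 1563 in tho2∆ (-0.02), a sign that turned under 6 of the alternatives. TEX1 had 549 and 523 in sub2∆ and 602 and 464 in tho2∆ (0.02), with arrays that overlapped, and its sign also turned. THP2 had 458 and 486 in sub2∆ and 376 and 427 in tho2∆. YRA1 had 11922 and 11372 in sub2∆ and 10303 and 10491 in tho2∆. Both passed the test on the relative scale (0.38 and 0.32, limma adjusted p = 0.0479 and 0.0336) but not as deposited. Of the 5 THO subunit genes, 2 rose after quantile normalization and 1 with array medians subtracted.

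Among 23 tested genes of THO/TREX, mRNA export and TREX-2, 2 rose (THO2 and SUS1) and 6 fell. Over all probe sets of the 14 other chromosomes, 20.7% fell as deposited and 6.45% on the relative scale. Besides SUB2, those that fell were MTR2, CDC31, MEX67, NAB6 and HRB1. MEX67, the export receptor, had 2832 and 2848 in sub2∆, against 3621 and 3479 in tho2∆ (-0.32, limma adjusted p = 0.0301). MTR2, its partner, had 3065 and 3123 in sub2∆ and 3844 and 4554 in tho2∆ (-0.43, limma adjusted p = 0.0333). CDC31, a centrin of TREX-2, had a log2 difference of -0.35, and NAB6 and HRB1, which bind mRNA, had -0.32 and -0.30. On the relative scale none of these 5 passed the test, at limma adjusted p from 0.124 to 0.243. Of 27 genes of RNA polymerase II elongation and 3′ end processing, limma called 0 on either scale, with a median of -0.126 as deposited. The 24 genes of the nuclear pore held 3 that rose, NSP1, NUP192 and NUP170, all on II or X. Of all probe sets on II and X 83.3% rose. NSP1, a phenylalanine-glycine repeat protein of the central channel, had 5551 and 5147 in sub2∆ against 3215 and 3046 in tho2∆. Of the 21 pore genes on other chromosomes 5 fell as deposited and 0 on the relative scale, against the same 20.7% and 6.45%. CHM7, a factor that watches over nuclear envelope integrity and lies on X, had 5562 and 5330 in sub2∆ against 2894 and 3455 in tho2∆, and 1409 ± 90.1 in hpr1∆ (SD, n = 3). In WT its 3 values were 339, 427 and 385, so it was above WT in all 3 deletion strains by its values.

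The strongest lower calls outside chromosomes II and X were of genes of varied function. RPS22B and RPS9A encode proteins of the small ribosomal subunit, and both genes contain introns. RPS22B had 2340 and 2373 in sub2∆, against 9746 and 9965 in tho2∆, 8602 ± 123 in hpr1∆ and 9168 ± 776 in WT (SD, n = 3 each). The sub2∆ arrays alone were low, 4.16-fold below tho2∆ (log2 difference -2.06 ± 0.07, limma adjusted p = 0.00112). RPS9A had 1523 and 1007 in sub2∆ and 3931 and 3461 in tho2∆ (-1.56, limma adjusted p = 0.00713), with 4804 ± 278 in hpr1∆ and 7671 ± 1259 in WT. RPL4B, the only other ribosomal protein gene that fell, had 5564 and 5845 in sub2∆ and 7974 and 9033 in tho2∆ (-0.57, limma adjusted p = 0.0118). Of 116 probe sets of ribosomal protein genes on the 14 other chromosomes, these 3 fell and 0 rose, with a median of -0.0676. Over all probe sets of those chromosomes 20.7% fell and 1.6% rose as deposited, so ribosomal protein genes were called less often than the rest. The paralogs of these genes lie on II or X. RPS22A rose to 16739 and 17533 in sub2∆, against 13566 and 13436 in tho2∆ (0.34, limma adjusted p = 0.0257). RPS9B had 18963 and 19748 in sub2∆ and 16731 and 17178 in tho2∆ (0.19, limma adjusted p = 0.107), and RPL4A is given above. Over the 18 ribosomal protein probe sets of II and X the median was 0.211, and 7 rose, against 83.3% of all probe sets there. Paralogs of ribosomal proteins are nearly identical in sequence, so a probe set may bind both copies. The paralogs were picked after the values were seen.

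The other genes among the 15 lowest differed in where WT and hpr1∆ lay. OYE3, an NADPH oxidoreductase of the old yellow enzyme family, had 399 and 286 in sub2∆, against 1330 and 1471 in tho2∆, 2654 ± 438 in hpr1∆ and 294 ± 43.8 in WT (SD, n = 3 each). The sub2∆ arrays were at the WT level, and the tho2∆ and hpr1∆ arrays were above it (sub2∆ minus tho2∆ -1.999 ± 0.16, limma adjusted p = 0.00424). GRE2, a methylglyoxal reductase, had 844 and 728 in sub2∆, against 2148 and 2363 in tho2∆ and 1202, 2515 and 2322 in WT (-1.50, limma adjusted p = 0.00424), so that the tho2∆ arrays lay within the range of WT. AAD4, a putative aryl-alcohol dehydrogenase, was lower by both of its probe sets, by -1.64 and -1.43, and the brighter of them can also bind related genes. The dimmer had 72.7 and 59.8 in sub2∆, against 213 and 270 in tho2∆ and 679, 515 and 467 in WT. CWP1, a cell wall mannoprotein, had 1363 and 1469 in sub2∆, against 5237 and 4517 in tho2∆, 10036 ± 791 in hpr1∆ and 2392 ± 183 in WT. TIR1, a cell wall mannoprotein of cold and low oxygen, had 2189 and 2091 in sub2∆ and 5281 and 5636 in tho2∆ (-1.34, limma adjusted p = 0.00424). Here WT was higher than every mutant, at 13583 ± 1988. HUG1, a DNA damage-induced inhibitor of ribonucleotide reductase, had 380 and 328 in sub2∆, against 917 and 922 in tho2∆ and 319 ± 38.1 in WT (-1.34, limma adjusted p = 0.00424). CHA1, the catabolic serine deaminase, had 136 and 123 in sub2∆ and 474 and 255 in tho2∆ (-1.33, limma adjusted p = 0.0231), with tho2∆ arrays that differed from each other by more than any other gene of these 15. YNL146C-A and YLR460C, at -1.50 and -1.40, have no role given here. All of these genes also fell on the relative scale, the largest limma adjusted p being 0.0429 for CHA1, whose call was lost after quantile normalization (0.0992).

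**Figure D4:**
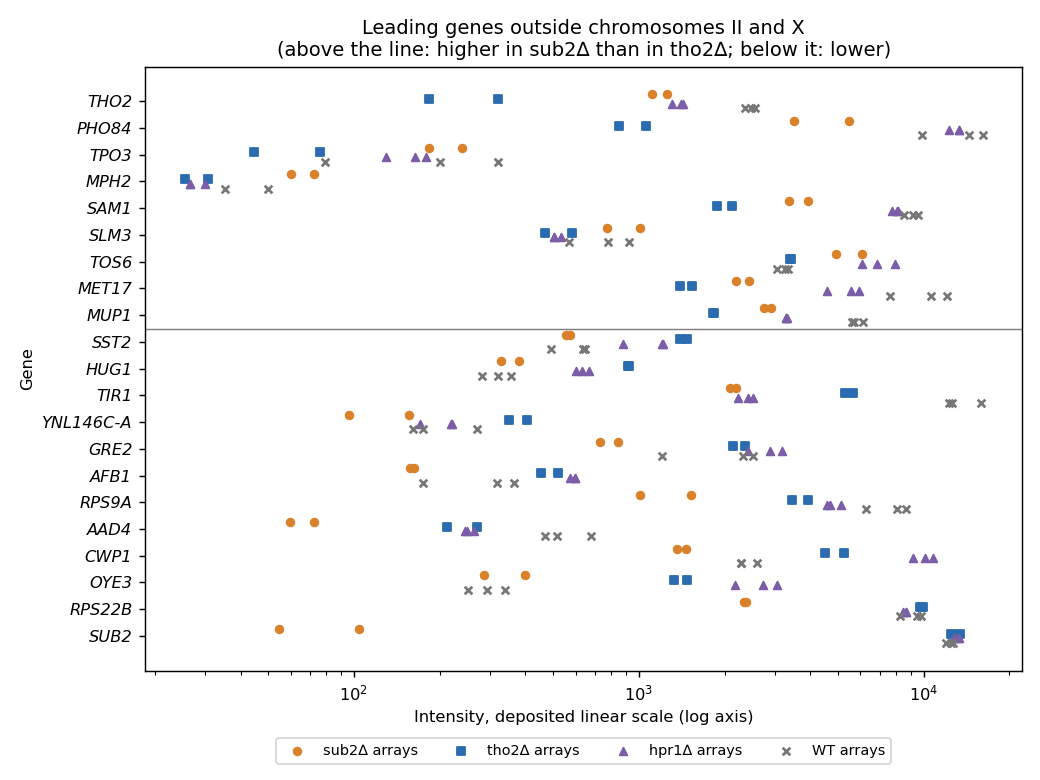
Intensity on each array (horizontal log axis) of leading genes outside chromosomes II and X with a probe set of 1 gene. Colours and marks stand for the sub2∆, tho2∆, hpr1∆ and WT arrays. Above the line the sub2∆ arrays lie above the tho2∆ arrays, led by THO2 and PHO84, and below it they lie under them, down to SUB2.

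Some genes of the pheromone response were lower in sub2∆. Cells of mating type a make a-factor, sense alpha-factor through a G protein and switch on fusion genes. Of 23 tested genes of mating type and pheromone, 1 rose, 8 fell and 14 were not called. All 8 that fell were among the 19 members outside II and X, where 20.7% of all probe sets fell as deposited and 6.45% on the relative scale. SST2, which switches the G protein off, had 573 and 556 in sub2∆, against 1472 and 1401 in tho2∆, 1101 ± 190 in hpr1∆ and 592 ± 87.5 in WT (SD, n = 3 each). Its log2 difference was -1.32 ± 0.08 (SE, limma adjusted p = 0.00424). AFB1, the a-factor barrier gene, was the strongest of the group and is no member of the list, with 162 and 158 in sub2∆ against 453 and 519 in tho2∆ (-1.51, limma adjusted p = 0.00424). MFA1, which encodes a-factor, had 6418 and 6069 in sub2∆ and 12540 and 13748 in tho2∆ (-1.07, limma adjusted p = 0.00424). AGA1, an agglutinin anchor, had 617 and 539 in sub2∆ and 1222 and 1330 in tho2∆, and FUS1, a cell fusion protein, had 473 and 439 in sub2∆ and 865 and 883 in tho2∆. In all of them the strains did not overlap, and MFA1 was above WT in both strains by its values. PRM1 (-1.20), MFA2 (-0.59), GPA1 (-0.48) and KAR4 (-0.32) also fell. On the relative scale the calls of GPA1 and KAR4 were lost (limma adjusted p = 0.0965 and 0.237) and 6 of the 19 members fell. FAR1, the cyclin-dependent kinase inhibitor of the response and the member that rose, lies on X (1537 and 1553 in sub2∆, 1065 and 1206 in tho2∆). The signal relay genes STE4 (a G protein subunit), STE5 (a scaffold) and STE20 (a kinase) had log2 differences of -0.17, -0.16 and -0.18 and did not pass the test.

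Some reserve carbohydrate, stress and iron genes were lower too. The counts below stand beside 20.7% lower over all probe sets of the 14 other chromosomes as deposited, and 6.45% on the relative scale. Of 16 genes of glycogen and trehalose outside II and X, 8 fell as deposited and 4 on the relative scale, with a median of -0.354. GSY1, a glycogen synthase, had 809 and 770 in sub2∆ and 1376 and 1419 in tho2∆ (-0.81, limma adjusted p = 0.00424). GPH1, glycogen phosphorylase, had 1423 and 1316 in sub2∆ and 2227 and 2002 in tho2∆ (-0.62), and GLC3, the branching enzyme, also had -0.62. Of 25 genes of the general stress response outside II and X, 11 fell as deposited and 6 on the relative scale. SPI1, a cell wall protein, had 921 and 1007 in sub2∆ and 1627 and 1766 in tho2∆ (-0.81, limma adjusted p = 0.00526). HSP26 and SSA3, the chaperone members that lie on II, rose instead. SSA3 had 6206 and 5184 in sub2∆ and 2799 and 3300 in tho2∆ (0.90, limma adjusted p = 0.00911). Of 30 iron regulon and copper uptake genes outside II and X, 11 fell as deposited and 4 on the relative scale. TIS11, which binds mRNAs of iron-using proteins for decay, had 68.8 and 85.5 in sub2∆ and 152 and 130 in tho2∆ (-0.75, limma adjusted p = 0.0123), and FRE1, a cell surface reductase, had 788 and 786 in sub2∆ and 1111 and 1246 in tho2∆ (-0.57, limma adjusted p = 0.0102). Over all 3874 probe sets of the 14 other chromosomes the median was -0.168, so a member near that value stands with the rest.

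Respiratory genes were called in both directions. Of 37 respiratory chain and ATP synthase genes outside II and X, 13 fell and 0 rose as deposited, and 4 fell on the relative scale, against 20.7% and 6.45% lower over all probe sets there. COX7, a cytochrome c oxidase subunit, had 1762 and 1656 in sub2∆, against 2529 and 2816 in tho2∆ (-0.64, limma adjusted p = 0.00852). COX4, another subunit, had 1133 and 980 in sub2∆ and 1492 and 1543 in tho2∆ (-0.52, limma adjusted p = 0.0174). Of the 6 members on II and X 5 rose, against 83.3% of all probe sets there. CYC1, cytochrome c, on X had 3117 and 2561 in sub2∆, against 1422 and 1111 in tho2∆, 9012 ± 78.9 in hpr1∆ (SD, n = 3) and between 4379 and 6510 on the 2 WT arrays with a value (1.16 ± 0.16, SE, limma adjusted p = 0.00763). HAP4, the limiting subunit of the activator of these genes, fell (822 and 884 in sub2∆, 1167 and 1318 in tho2∆, -0.53, limma adjusted p = 0.015), while HAP3, its partner on II, rose (660 and 514 in sub2∆, 390 and 291 in tho2∆, 0.76, limma adjusted p = 0.0319). All 8 mitochondrial ribosomal protein genes on II and X rose, from 0.54 to 1.04, while 2 of the 48 elsewhere fell and 0 rose as deposited. On the relative scale those 2 lower calls were lost, as 0 of the 48 fell, while 2 of the 48 rose, both of the small subunit. Over all probe sets elsewhere 4.83% rose and 6.45% fell on that scale.

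PHO84 was the largest higher call outside II and X apart from the deleted THO2. It encodes the high-affinity phosphate transporter of the plasma membrane. It had 3506 and 5457 in sub2∆, against 1059 and 852 in tho2∆, 12946 ± 584 in hpr1∆ and 13474 ± 3231 in WT (SD, n = 3 each). Both sub2∆ arrays were above both tho2∆ arrays and below every hpr1∆ and WT array (2.18 ± 0.23, SE, limma adjusted p = 0.00502). Of 12 phosphate regulon genes 3 rose, and besides PHO84 these were VTC4 of the vacuolar polyphosphate polymerase, on X, and PHO11, an acid phosphatase whose probe set can bind a paralog. VTC4 was the only tested member on II or X, where 83.3% of all probe sets rose. Of the 11 elsewhere 2 rose as deposited and 5 on the relative scale, against 1.6% and 4.83% of all probe sets there. PHO11 had 831 and 1072 in sub2∆ and 642 and 564 in tho2∆ (0.64, limma adjusted p = 0.0292). VTC1, VTC3 and PHM8 passed the test on the relative scale but not as deposited. Of the 12 regulon genes, 5 rose with array medians subtracted and 5 after quantile normalization. PHO85, the kinase that represses the regulon, was not called as deposited (0.05) or on the relative scale. PHO5, the main acid phosphatase on II, was not tested for lack of a second sub2∆ value. Its values were 1786 on 1 sub2∆ array and 189 and 283 in tho2∆. TPO3, a polyamine exporter, had 183 and 239 in sub2∆ and 44.6 and 76.1 in tho2∆ (1.59, limma adjusted p = 0.00899), and its WT values ran from 79.2 to 321.

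Several methionine genes outside II and X rose. Of 16 methionine and sulfate assimilation genes there, 4 rose and 3 fell as deposited, and 5 rose and 1 fell on the relative scale, against 1.6% higher over all probe sets there as deposited and 4.83% on the relative scale. SAM1, an S-adenosylmethionine synthetase, had 3358 and 3916 in sub2∆, against 2132 and 1876 in tho2∆, 7983 ± 228 in hpr1∆ and 9082 ± 501 in WT (SD, n = 3 each), a log2 difference of 0.85 ± 0.11 (SE, limma adjusted p = 0.00739). MET17, which makes homocysteine, had 2199 and 2429 in sub2∆ and 1393 and 1538 in tho2∆ (0.65, limma adjusted p = 0.00911). MUP1, a methionine permease, had 2915 and 2748 in sub2∆ and 1826 and 1830 in tho2∆ (0.63, limma adjusted p = 0.00617). In each of these, hpr1∆ and WT were above both strains. MET16, which reduces activated sulfate, went the other way, with 450 and 419 in sub2∆ against 769 and 795 in tho2∆ (-0.82, limma adjusted p = 0.00424). ARO10, a decarboxylase of the Ehrlich pathway, had 5885 and 5947 in sub2∆, against 3893 and 4050 in tho2∆, 1272 ± 150 in hpr1∆ and 451 ± 47.5 in WT (0.57, limma adjusted p = 0.0068). The amino acid permease genes TAT1 and BAP2, neighbours on II, rose by 0.77 and 0.70. ACO1, aconitase, had 7188 and 6258 in sub2∆ and 4769 and 4841 in tho2∆ (0.48, limma adjusted p = 0.0198).

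Few chaperone and proteasome genes were called as deposited, and more on the relative scale, on which 4.83% of all probe sets of the 14 other chromosomes were higher. Of 22 heat shock chaperone genes outside II and X, 1 rose as deposited (AHA1, a cochaperone of Hsp90, 0.35) and 6 on the relative scale, with a relative median of 0.237 and 0 that fell. HSP82, the Hsp90 chaperone, had 5702 and 4861 in sub2∆ and 4125 and 4410 in tho2∆ (0.30 as deposited, limma adjusted p = 0.0801, and 0.45 with 0.0294 on the relative scale). SSA1, an Hsp70, had 11807 and 10628 in sub2∆ and 9058 and 9367 in tho2∆ (0.28 with 0.0608, and 0.43 with 0.0183). Of 29 proteasome genes, none of them on II or X, 1 rose as deposited (RPT1, a base ATPase, 6967 and 6901 in sub2∆ and 5803 and 5802 in tho2∆, 0.26, limma adjusted p = 0.0481) and 8 on the relative scale, with a relative median of 0.254. PRE1, a core subunit, had 8554 and 8080 in sub2∆ and 7007 and 6848 in tho2∆ (0.41 on the relative scale, limma adjusted p = 0.0155). The rest of the 8 were PUP2, PUP3, PRE4, PRE10, RPT5 and RPN9, named after their values were seen, at 0.28 to 0.34. The median over the probe sets of the 14 other chromosomes was -0.0158 on that scale. The counts rest on the scaling: after quantile normalization 1 of the 29 proteasome genes rose and with array medians subtracted 2, with list medians of 0.124 and 0.218. Over all 25 chaperone genes, including 3 on II, the medians were 0.127 and 0.227, with 4 and 6 that rose.

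Splicing genes and genes with introns were called in both directions outside II and X, where 20.7% of all probe sets fell as deposited and 6.45% on the relative scale. Of 51 spliceosome genes there, 1 rose and 13 fell as deposited, and 5 rose and 4 fell on the relative scale. NAM8, a U1 component, had 441 and 431 in sub2∆ and 640 and 670 in tho2∆ (-0.57, limma adjusted p = 0.00717), and PRP19, of the complex that activates the spliceosome, had 1344 and 1255 in sub2∆ and 1959 and 1800 in tho2∆ (-0.53, limma adjusted p = 0.012). LSM6, of the ring that binds U6 RNA, had 2226 and 2057 in sub2∆ and 1752 and 1420 in tho2∆ (0.44, limma adjusted p = 0.0488). Of 72 intron-containing genes other than ribosomal protein genes, 1 rose and 12 fell as deposited, and 3 rose and 3 fell on the relative scale. SNC1, a vesicle SNARE, rose (1617 and 1406 in sub2∆, 1106 and 1153 in tho2∆, 0.41, limma adjusted p = 0.0313), and NYV1, a vacuolar SNARE, fell (837 and 876 in sub2∆, 1215 and 1312 in tho2∆, -0.55, limma adjusted p = 0.00936). All 9 intron-containing genes on II and X rose, among them UBC4, a ubiquitin-conjugating enzyme (15961 and 15865 in sub2∆, 9382 and 9491 in tho2∆, 0.75, limma adjusted p = 0.00424). Of all probe sets on II and X 83.3% rose. Arrays of this kind do not tell spliced from unspliced RNA.

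Cell cycle and DNA damage genes were called higher mostly on II and X, where 83.3% of all probe sets were. On the other 14 chromosomes 20.7% of all probe sets fell as deposited and 6.45% on the relative scale. Of the 6 genes of G1 and S phase on II and X, 6 rose, and of the 25 elsewhere 1 rose and 4 fell. On the relative scale 1 of the 25 rose and 2 fell. SWE1, the kinase of the morphogenesis checkpoint, on X had 1860 and 1632 in sub2∆ and 833 and 751 in tho2∆ (1.12, limma adjusted p = 0.00424). CLN2, a G1 cyclin and the member elsewhere that rose, had 3730 and 3914 in sub2∆, against 2783 and 2662 in tho2∆ and 1156 ± 253 in WT (SD, n = 3, 0.49, limma adjusted p = 0.011). PRI2 and POL1, of the primase complex, fell by 0.49 and 0.47. Of 6 genes of the DNA damage response and recombination on II and X 5 rose, led by CHK1, a checkpoint kinase (1943 and 1844 in sub2∆, 911 and 988 in tho2∆, 0.98, limma adjusted p = 0.00424). Of the 26 elsewhere 5 fell, among them HUG1, RAD54, a motor of recombination (-0.61), and RNH1, which degrades RNA in RNA-DNA hybrids (298 and 213 in sub2∆, 419 and 385 in tho2∆, -0.64, limma adjusted p = 0.0389). On the relative scale 1 of the 26 rose and 2 fell, and the call of RNH1 was lost (limma adjusted p = 0.0904).

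Over all 39 gene lists, 1026 genes were tested and 108 rose, of which 89 lay on II or X, where the lists had 112 genes. The median of the list members on II and X, on the relative scale, was above that of the other members of the same list in each of the 34 lists with members in both places.

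**Figure D5:**
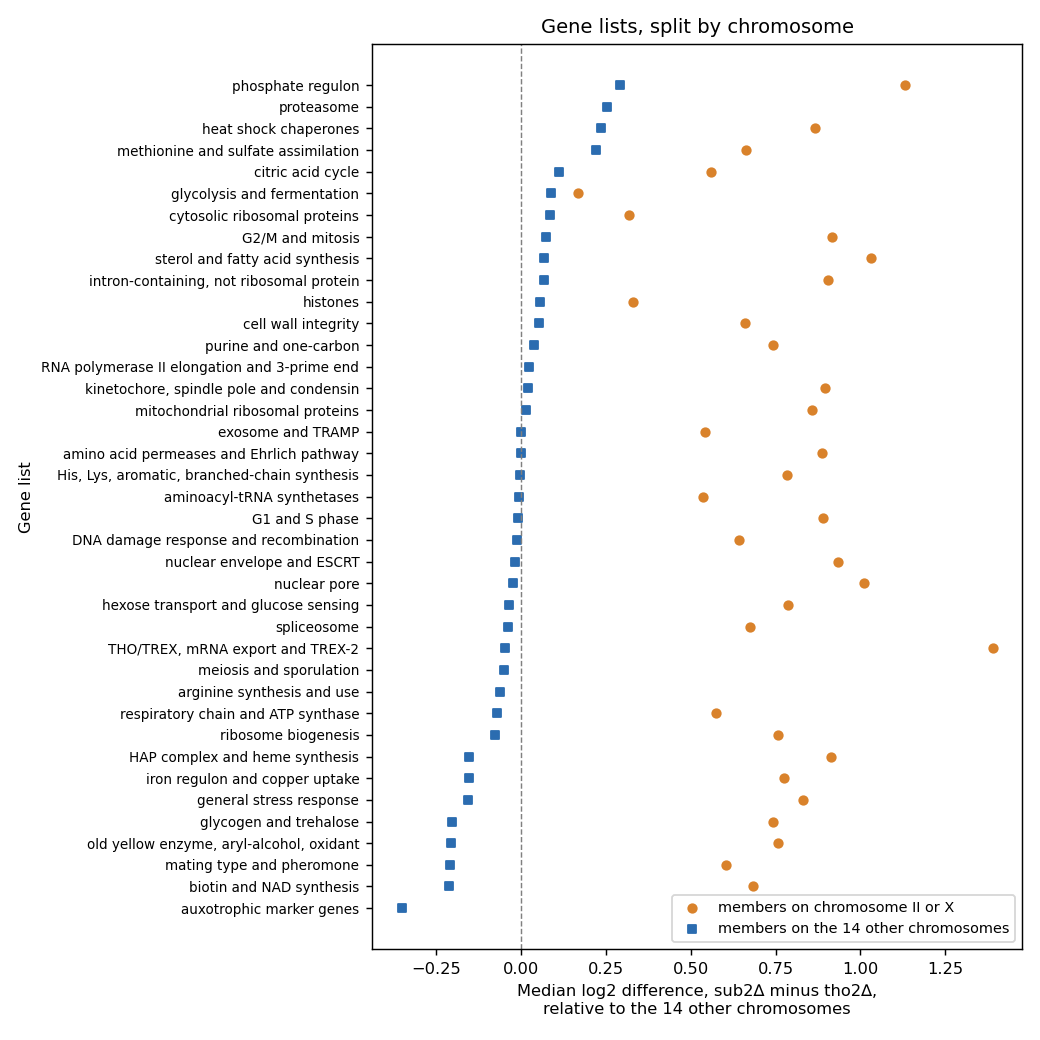
Median log2 difference between sub2∆ and tho2∆, relative to the 14 other chromosomes (horizontal axis), for each gene list (vertical axis), split into members on chromosomes II or X (orange) and members on the 14 other chromosomes (blue). The blue medians run from -0.351 for the marker genes to 0.292 for the phosphate regulon, and every orange median lies to the right of the blue one of its list.

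Next to SUB2 on chromosome IV, NDE2, a mitochondrial NADH dehydrogenase, had 169 and 147 in sub2∆ and 312 and 252 in tho2∆ (-0.77, limma adjusted p = 0.0124). Next to THO2 on chromosome XIV, YSF3, a splicing factor subunit, had 731 and 507 in sub2∆, against 1196 and 1338 in tho2∆, with 668 ± 57.8 in hpr1∆ and 756 ± 118 in WT (SD, n = 3 each). Here the tho2∆ arrays stood above those of the other strains (-1.04, limma adjusted p = 0.0144). HIS3, whose DNA replaces SUB2 in the sub2∆ strain, had 321 and 374 in sub2∆ and 495 and 500 in tho2∆ (-0.50, limma adjusted p = 0.019), and WT had 2282 ± 879. Its call was lost on the relative scale (-0.35, limma adjusted p = 0.0759) and after quantile normalization (-0.25, limma adjusted p = 0.0936). YHR054C, in the tandem repeat that holds the metallothionein gene CUP1, had 3676 and 2971 in sub2∆, against 7941 and 7517 in tho2∆, 3223 ± 497 in hpr1∆ and 3246 ± 302 in WT (-1.22, limma adjusted p = 0.00441). The tho2∆ arrays alone were high, and the probe set can bind several copies. CUP1-1 itself, at 31953 and 31675 in sub2∆ and 35972 and 33281 in tho2∆, was not called. YHR054C and CUP1-1 were picked after their values were seen.

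The nearness of the arrays outside the test to each strain was taken on deposited levels, with no centring. On these levels sub2∆ lay lower over all probe sets of the 14 other chromosomes. The median of sub2∆ minus hpr1∆ there was -0.206 and that of sub2∆ minus WT -0.232. The shares below therefore also carry the scaling of the arrays. On II and X, hpr1∆ was nearer to tho2∆ than to sub2∆ for 289 of the 383 higher calls (75.5%), and WT for 248 (64.8%). Over all probe sets of II and X, called or not, the shares were much the same, at 74.7% and 64.8%. Of the 802 lower calls on the other 14 chromosomes, hpr1∆ was nearer to tho2∆ for 571 (71.2%) and WT for 527 of 795 with at least 2 WT values (66.3%). Over all probe sets of those chromosomes the shares were 59.8% and 57.2%. For the 62 higher calls there, they were 51.6% and 43.5%.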

How the data were processed

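Total RNA of 10 yeast cultures was measured on single-colour Affymetrix arrays after labelling with biotin by a 1-cycle protocol, per the labels. The deposited table gives 1 linear intensity for each probe set and array. The software and any background correction or scaling behind it: not given in the sources used here. Of 57160 cells, 3220 were empty for a reason not given. Of the 5716 probe sets, 5498 were named through a platform annotation with 1 gene, 218 had none, and 12 symbols were updated. A RefSeq table of assembly R64 gave names and gene order only.

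Intensities were taken as log2(intensity + 16), and probe sets with 2 values in each of sub2∆ and tho2∆ were fitted with limma 3.58.1 (R 4.3.3; lmFit and eBayes on the 4 arrays, Benjamini-Hochberg adjustment over 4498 probe sets, threshold 0.05). No WT or hpr1∆ array entered this fit. Fold changes are on that log2 scale, which understates those of dim genes. The 4 arrays limit the precision, and counting depth does not apply to arrays. Summaries used Python 3.11.15 with pandas 2.3.3, figures matplotlib 3.10.9, and the fit was tested on simulated data.

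Genes named by rule are the THO and TREX genes and HIS3. They also include the 15 highest and 15 lowest called probe sets of 1 gene whose strains did not overlap. From each gene list up to 6 called members per direction could be named, and every member in lists of at most 12. Genes named outside this rule were chosen with their values known. Some are marked so where they stand. Others, among them STE4, STE5, STE20, HSP82, SSA1 and PRE1, are not marked there. The comparison, its members and the gene lists were chosen with earlier results of these data known. Replicates 1 of both strains did not deviate together (r = -0.0293 over 4498 probe sets, which are not independent). Alternatives covered the offset, scaling, filters, the arrays that set the spread and each array left out. Probe sets with fewer values were left out of tests because both arrays of each strain are needed for a spread.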

Additional observations from a re-analysis of the deposited data

How the results depend on the processing

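The number of calls depended on the scaling and on the spread estimate. Calls numbered 774 (238 lower) after quantile normalization, 833 (293 lower) with array medians subtracted, 1993 (1430 lower) with the spread from 7 mutant arrays, and 19 (9 higher, 10 lower) against a minimum log2 change of 0.5. Lower calls were 1266 with an intensity trend and 267 with the medians of the 14 other chromosomes subtracted. With those 14 chromosomes alone there were 592 calls (37 higher, 555 lower), and 166 (58 and 108) with their medians subtracted. In the fits of all 4498 probe sets, the same 3874 had 62 higher and 802 lower calls as deposited. With the medians subtracted they had 187 and 250. Why fewer were called when fitted alone was not tested. Leaving out 1 array gave 396 to 919 calls, 263 to 388 higher and 133 to 545 lower. The replicate block gave 1137 calls (445 higher, 692 lower). Nothing in the labels says that the replicate numbers pair arrays of different strains.

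The medians of chromosomes II and X were 0.724 and 0.787 after quantile normalization, 0.732 and 0.765 with array medians subtracted, and 0.767 and 0.8 relative to the other 14. The median log2 difference of the 14 other chromosomes was then -0.0486, -0.051 and -0.0158. MFT1 turned sign after quantile normalization (0.0919), with array medians (0.0982), on both fits relative to the 14 chromosomes (0.1335), and without sub2∆ replicate 1 (0.076) or tho2∆ replicate 1 (0.0064), in a leave-one-out range of -0.1127 to 0.076. TEX1 turned to -0.0129 without sub2∆ replicate 1 and -0.1614 without tho2∆ replicate 2 (range -0.1614 to 0.2032), and CUP1-1 to 0.0307 on both relative fits. The cause was not tested. Each strain has 2 arrays, and 1218 probe sets lacked the values for a test.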
